A study of Mus musculus with 12 samples.

Results

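The 10 genes of the interleukin-1 family and the inflammasome were taken by symbol from the deposited tables, 10 of 57180 genes in all: Il1a, Il1b, Il1rn, Il1r1, Il18, Nlrp3, Casp1, Casp4, Pycard and Gsdmd. They were measured by bulk paired-end RNA sequencing in 12 injured spinal cords of female C57BL/6J wild-type mice, collected 7 days after a clip compression of the thoracic cord and including about 0.5 cm on either side of the lesion. SCI7 mice carried the injury alone. Ovariectomy, the removal of both ovaries, preceded the injury by 2 weeks in OVX2_SCI7 mice and by 8 weeks in OVX8_SCI7 mice. There were 4 biological replicates in each of the 3 groups. The injury is common to every group, and no sham surgery or intact cord was analysed here, so that the effect of the ovariectomy operation cannot be told apart from that of ovary loss. The age label of 8 weeks is the same in all samples and does not say at which step it was taken, so age at injury may also differ between groups.

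Interleukin-1 alpha and beta are cytokines that start inflammation through a shared receptor on responding cells. Interleukin-1 beta and interleukin-18 are made as inactive precursors, and an inflammasome is the protein platform on which the protease caspase-1 is activated to cut them. Caspase-1 and caspase-11, the product of mouse Casp4, also cut gasdermin D, which then opens pores in the cell membrane and lets the cytokines out in a lytic cell death called pyroptosis. Microglia and infiltrating macrophages are well-known sources of these proteins in the injured cord, and mRNA levels do not report the cutting steps.

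The sequences just upstream of the start site are shown for 5 genes whose levels varied together or in opposite ways among the libraries, as described further on. Promoter entries of RefSeq (GRCm38.p6) matched 9 of the 10 genes, with 14 start sites, and Gsdmd was not among them. Each line gives the 250 bases before the start, 5′ to 3′ on the gene's strand, and capitals mark a motif match. They lie at chr9:5298267-5298516 (plus strand) for Casp1, chr9:5308599-5308848 (plus) for Casp4, chr11:59541319-59541568 (plus) for Nlrp3, chr7:127993868-127994117 (minus) for Pycard and chr9:50554450-50554699 (plus) for Il18.
Casp1: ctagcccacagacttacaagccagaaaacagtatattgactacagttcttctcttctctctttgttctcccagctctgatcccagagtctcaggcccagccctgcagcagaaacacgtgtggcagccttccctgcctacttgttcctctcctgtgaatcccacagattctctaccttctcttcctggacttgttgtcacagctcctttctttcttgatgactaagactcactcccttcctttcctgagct
Casp4: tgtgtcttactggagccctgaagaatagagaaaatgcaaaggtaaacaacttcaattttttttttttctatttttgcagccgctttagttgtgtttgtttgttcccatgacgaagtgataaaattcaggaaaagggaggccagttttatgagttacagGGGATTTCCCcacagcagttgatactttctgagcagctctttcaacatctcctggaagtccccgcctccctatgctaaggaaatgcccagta
Nlrp3: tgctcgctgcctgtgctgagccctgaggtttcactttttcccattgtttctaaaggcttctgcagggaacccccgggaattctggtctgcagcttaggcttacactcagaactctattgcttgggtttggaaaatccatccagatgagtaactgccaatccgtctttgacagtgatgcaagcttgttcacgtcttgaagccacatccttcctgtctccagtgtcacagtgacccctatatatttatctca
Pycard: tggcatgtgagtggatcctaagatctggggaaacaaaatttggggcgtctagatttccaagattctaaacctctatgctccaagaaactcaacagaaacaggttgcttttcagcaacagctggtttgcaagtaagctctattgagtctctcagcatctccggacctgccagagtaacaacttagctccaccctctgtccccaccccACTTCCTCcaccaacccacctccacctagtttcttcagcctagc
Il18: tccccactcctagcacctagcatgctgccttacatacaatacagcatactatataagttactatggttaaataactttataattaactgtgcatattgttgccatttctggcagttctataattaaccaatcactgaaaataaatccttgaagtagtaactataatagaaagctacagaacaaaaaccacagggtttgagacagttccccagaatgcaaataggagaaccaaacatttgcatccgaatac

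Motifs were searched on both strands of all 14 windows, with N for any base. For NF-kappaB, only a restricted form of the consensus was searched. It was found, as GGGATTTCCC, before both annotated starts of Casp4, at the same genomic place, 92 and 103 bases upstream. The same form was in 0.98% of 32851 mouse promoter windows of the same length. Sites that match only a wider NF-kappaB consensus were not counted. The Ets site GAGGAAGT, bound by the myeloid factor PU.1, was found in reverse orientation before Pycard, 44 bases upstream, and in 2.44% of windows. The core of the interferon-stimulated response element (2.98% of windows) and the STAT site TTCNNNGAA (7.02%) were in 0 of the 14 windows. No matches overlapped, and the absence of a match says only that these letters are not in the window.

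Libraries held 18222729 to 31781695 counts, so a floor of 3 counts corresponds to 0.0944 to 0.165 CPM, counts scaled to a common library size. All 10 genes passed the low-count filter that left 17820 genes for testing, with raw counts of 6 (Il1b in SCI7 replicate 3) to 1613 (Il1r1 in SCI7 replicate 4). Several libraries stood apart. The summed level of 10 markers shared by microglia and macrophages was 706.4 CPM in SCI7 replicate 3 and 1781 to 2289 CPM in the other SCI7 libraries. In OVX2_SCI7 it was 1267 and 1936 CPM in replicates 1 and 2 against 4194 and 4383 CPM in replicates 3 and 4. OVX2_SCI7 replicate 2 also held 378 CPM of 6 sensory neuron markers, against at most 68.8 CPM (replicate 3 of the same group) in the other 11 libraries. Libraries also differed in how their levels related to GC content. The Spearman correlation, over protein-coding genes, of a library's deviation from the average library with transcript GC content was -0.81 to -0.49 in SCI7, -0.41 to 0.51 in OVX2_SCI7 and 0.16 to 0.84 in OVX8_SCI7. Mitochondrial transcripts took 5.35 to 9.35%, 2.36 to 8.33% and 2.2 to 3.36% of counts in the same order. OVX2_SCI7 replicate 1 lay with SCI7 in its mitochondrial share of 8.33%, and just above the SCI7 range in its GC trend of -0.41.

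**Figure D1:**
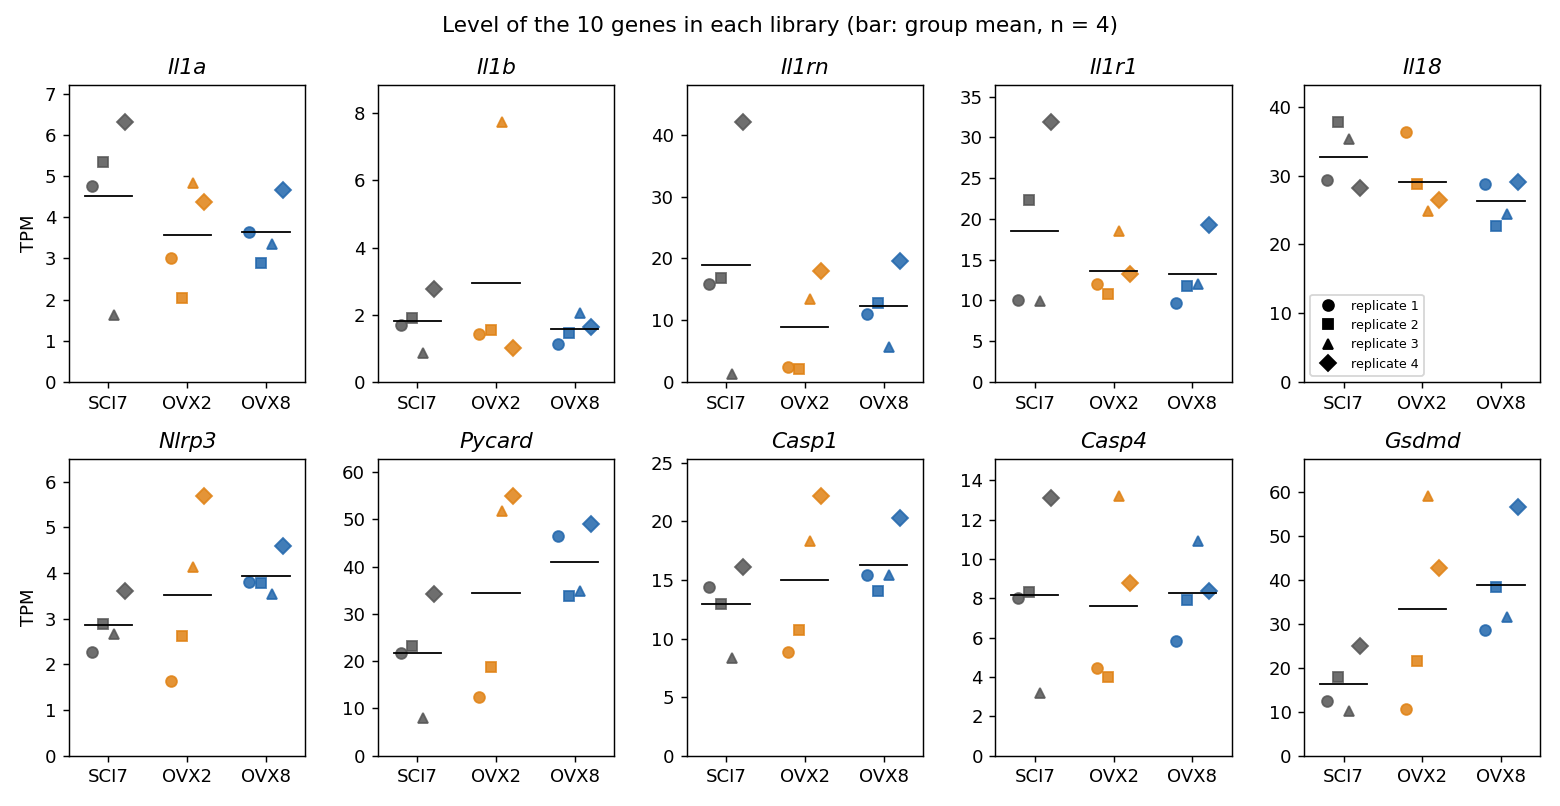
Deposited TPM values of the 10 genes in each library, with 1 symbol per replicate number and a bar at the mean of 4. Gsdmd is the gene whose 4 OVX8_SCI7 libraries (28.7 to 56.5 TPM) all lie above the SCI7 libraries (10.2 to 24.8 TPM), while OVX2_SCI7 spans both.

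On the length-scaled TPM scale, which allows genes to be compared, Pycard, Gsdmd and Il18 were highest. Pycard, the adaptor that links sensors to caspase-1, averaged 32.4 ± 15.8 TPM over the 12 libraries (SD), Gsdmd 29.5 ± 16.8 and Il18 29.4 ± 4.83, levels that did not differ beyond their spread. Il1r1, Casp1 and Il1rn followed at 15.1 ± 6.73, 14.8 ± 4.25 and 13.4 ± 11.1 TPM, again within each other's spread, and Casp4 at 8.01 ± 3.29. Il1a at 3.90 ± 1.39, Nlrp3 at 3.44 ± 1.10 and Il1b at 2.10 ± 1.85 TPM were lowest, and their ranges overlapped. Compared within libraries, Il1b was below both Il1a and Nlrp3 in all but OVX2_SCI7 replicate 3, where it was at 7.74 against 4.84 and 4.13 TPM. Among the ligands the Il18 transcript exceeded Il1a and Il1b together in every library, by 1.98 times in OVX2_SCI7 replicate 3 to 14.3 times in SCI7 replicate 3.

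The first ligand, Il1a (ENSMUSG00000027399, chromosome 2), encodes interleukin-1 alpha, a cytokine released by damaged cells. Its level in SCI7 replicates 1 to 4 was 5.70, 5.43, 1.64 and 6.16 CPM. It was 3.13, 1.90, 5.90 and 5.24 CPM in OVX2_SCI7 and 4.27, 2.98, 3.30 and 4.59 CPM in OVX8_SCI7. SCI7 replicate 3 was the lowest of all 12, the groups overlapped, and the log2 differences from SCI7 were -0.23 (SE 0.42) for OVX2_SCI7 and -0.32 (SE 0.42) for OVX8_SCI7.

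Il1b (ENSMUSG00000027398, chromosome 2) encodes interleukin-1 beta and was the lowest of the 10 genes. SCI7 libraries had 1.27, 1.18, 0.327 and 1.67 CPM and OVX8_SCI7 libraries 0.749, 0.962, 1.20 and 1.03 CPM. In OVX2_SCI7 the values were 0.954, 0.928, 5.41 and 0.674 CPM, so that replicate 3 alone lay above all other libraries. The log2 difference of OVX2_SCI7 from SCI7 was 0.83 (SE 0.65), and it turned to -0.38 without that replicate. That of OVX8_SCI7 from SCI7 was -0.18 (SE 0.66). Il1a and Il1b each overlap a transcript on the opposite strand in the annotation, Gm14023 and Il1bos, and since no source used here gives the strand setting, reads of these pairs cannot be told apart.

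Il1rn (ENSMUSG00000026981, chromosome 2) encodes the receptor antagonist, which occupies the interleukin-1 receptor without signalling, and it varied most. SCI7 libraries had 14.2, 17.2, 1.25 and 25.4 CPM, a 20.3-fold range within 1 group. OVX2_SCI7 libraries had 2.17, 1.90, 16.7 and 13.7 CPM and OVX8_SCI7 libraries 7.18, 6.99, 3.70 and 13.5 CPM. The 3 lowest values were those of SCI7 replicate 3 and OVX2_SCI7 replicates 1 and 2, the 3 libraries with the lowest level of Casp4 as well. The log2 differences from SCI7 were -0.75 (SE 0.82) and -0.89 (SE 0.82). The ratio of Il1rn to Il1b in TPM was above 1 in every library, at 1.45 to 15.3 in SCI7, 1.3 to 17.7 in OVX2_SCI7 and 2.74 to 12.1 in OVX8_SCI7, and these ranges overlapped.

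Il1r1 (ENSMUSG00000026072, chromosome 1) encodes the signalling receptor for both interleukin-1 cytokines, and is well known on endothelial and stromal cells. It ranged from 25.8 to 81.4 CPM in SCI7, 27.4 to 61.8 CPM in OVX2_SCI7 and 31.6 to 51.2 CPM in OVX8_SCI7. Its log2 differences from SCI7 were -0.26 (SE 0.36) and -0.41 (SE 0.36), with overlap in both comparisons. Across the 12 libraries its log2 level correlated at r = 0.75 with the summed level of 6 endothelial markers (0.49 without the 2 farthest libraries) and at 0.57 with that of 6 fibroblast markers (0.48). For 10 monocyte and macrophage markers r was 0.71 (0.74 without the 2 farthest libraries). The endothelial sum was 256.4 to 509.1 CPM in SCI7, 284.4 to 485.4 in OVX2_SCI7 and 356.3 to 435.0 in OVX8_SCI7, and their part in the result was not tested.

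Il18 (ENSMUSG00000039217, chromosome 9) encodes interleukin-18, a cytokine whose precursor is present in resting cells. It was the steadiest of the 10 genes, with 13.05, 13.8, 12.4 and 9.49 CPM in SCI7, 13.8, 8.68, 9.43 and 9.74 CPM in OVX2_SCI7 and 10.5, 7.51, 8.34 and 9.88 CPM in OVX8_SCI7. SCI7 replicate 3, the lowest of the 12 libraries for each of the 9 other genes, was among the higher libraries here. The log2 difference was -0.23 (SE 0.19) for OVX2_SCI7 and -0.43 (SE 0.19, edgeR quasi-likelihood adjusted p = 0.112) for OVX8_SCI7.

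Nlrp3 (ENSMUSG00000032691, chromosome 11), the sensor that assembles the inflammasome after membrane damage or ion loss, had 5.76, 6.12, 2.84 and 7.47 CPM in SCI7. OVX8_SCI7 libraries had 9.74, 8.44, 7.54 and 9.72 CPM and OVX2_SCI7 libraries 3.55, 5.29, 10.9 and 14.9 CPM. All 4 OVX8_SCI7 libraries lay above SCI7 in CPM, the closest by a small margin, but in TPM the ranges of 3.55 to 4.60 and 2.28 to 3.61 overlapped. The log2 difference was 0.67 (SE 0.41) for OVX8_SCI7 and 0.64 (SE 0.41) for OVX2_SCI7. Pycard (ENSMUSG00000030793, chromosome 7) had 17.5, 16.1, 7.69 and 22.0 CPM in SCI7, 11.9, 13.2, 35.3 and 43.5 CPM in OVX2_SCI7 and 35.0, 24.0, 20.0 and 26.3 CPM in OVX8_SCI7. OVX8_SCI7 and SCI7 overlapped through 1 library on each side, OVX2_SCI7 reached from within the SCI7 range to above it, and the log2 differences were 0.71 (SE 0.43) and 0.73 (SE 0.43). Pycard overlaps Gm45205 on the opposite strand, with the same limit as for Il1a.

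The caspases did not stand apart between groups. Casp1 (ENSMUSG00000025888, chromosome 9), the protease of the inflammasome, ranged from 5.51 to 13.5 CPM in SCI7, 6.31 to 19.6 CPM in OVX2_SCI7 and 10.8 to 15.2 CPM in OVX8_SCI7, with log2 differences from SCI7 of 0.23 (SE 0.36) and 0.30 (SE 0.36). Casp4 (ENSMUSG00000033538, chromosome 9), the sensor of bacterial lipopolysaccharide inside the cell, ranged from 1.64 to 6.97, 2.37 to 7.34 and 4.13 to 5.45 CPM, with log2 differences of -0.08 (SE 0.44) and -0.06 (SE 0.44). The genes are related in sequence, and whether reads shared between them were split was not tested.

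Gsdmd (ENSMUSG00000022575, chromosome 15), the pore-forming effector, showed the largest difference from SCI7 among the 10 genes in both ovariectomy groups in this fit, though not under the GC content and length offset described further on. SCI7 libraries had 7.82, 9.35, 4.96 and 14.0 CPM. OVX8_SCI7 libraries had 22.2, 20.0, 18.98 and 26.3 CPM, all above every SCI7 library. OVX2_SCI7 libraries were split, with 6.73 and 11.5 CPM in replicates 1 and 2, inside the SCI7 range, and 36.0 and 27.2 CPM in replicates 3 and 4. The log2 difference from SCI7 was 1.27 (SE 0.46, unadjusted p = 0.0164, adjusted p = 0.0556 in the edgeR quasi-likelihood test with Benjamini-Hochberg adjustment) for OVX8_SCI7 and 1.17 (SE 0.46, adjusted p = 0.105) for OVX2_SCI7, which both miss the threshold of 0.05.

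The first comparison asks what an ovariectomy 2 weeks before injury changed. In OVX2_SCI7 against SCI7 0 of the 10 genes passed in edgeR, as did 0% of the 17820 genes tested. At an unadjusted p under 0.05 it was 1 gene, Gsdmd, against 32.5% of all genes. DESeq2, run without the low-count filter, called 3488 of 33316 genes and 0 of the 10. The median log2 difference of the 10 genes was 0.07 with 5 positive values, beside 0.04 over all genes, and 0 of the 10 had groups that did not overlap, against 6.13% of all genes higher and 6.29% lower. The outcome changed with the libraries that stood apart. Without OVX2_SCI7 replicates 1 and 2, which are also the lowest of their group in the myeloid markers given above, 3 of the 10 genes were called higher by edgeR with Benjamini-Hochberg adjustment, namely Gsdmd at 1.81 (adjusted p = 0.0035), Pycard at 1.32 (adjusted p = 0.0116) and Nlrp3 at 1.22 (adjusted p = 0.011), together with 7141 of all genes. For these 3 genes, replicates 1 and 2 hold the lowest values of the group, so leaving them out raises its mean by construction. The calls are thus no separate support for a difference. Without OVX2_SCI7 replicate 1 alone, its lowest library for Gsdmd, that gene was called at 1.44 (edgeR adjusted p = 0.0144) along with 6264 genes in all. Without SCI7 replicate 3, the lowest in those markers, the log2 differences were 0.95 for Gsdmd, 0.47 for Pycard, 0.41 for Nlrp3 and 0.0012 for Casp1, and edgeR called 0 of the 10 and 0 of all genes.

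The second comparison asks the same for an ovariectomy 8 weeks before injury. In OVX8_SCI7 against SCI7, 0 of the 10 genes were called against 27.5% of all genes (11.9% higher and 15.6% lower) in the edgeR test. At an unadjusted p under 0.05 there were 2, Gsdmd and Il18, against 43.2%. Libraries did not overlap for 2 genes, Nlrp3 and Gsdmd, both higher, against 19.6% of all genes in that direction and 19.6% in the other. The median log2 difference was -0.12 with 4 positive values, beside 0.015 over all genes. Gsdmd passed under some settings, at an adjusted p of 0.0229 with DESeq2, which called 6215 of 33316 genes. In edgeR with the 8 libraries alone its adjusted p was 0.00647, with 7426 genes called over all. Its log2 difference there was 1.26 (SE 0.275), so the estimate was similar and the SE smaller. The range of adjusted p over all alternatives was 0.00461 to 0.369. In edgeR Gsdmd also passed without SCI7 replicate 4 (1.57, adjusted p = 0.0387), along with 4847 genes in all. That library is the highest of SCI7 for Gsdmd, so leaving it out lowers the group mean by construction. Gsdmd passed too without OVX2_SCI7 replicate 1 (1.26, adjusted p = 0.0182) or replicate 3 (1.28, adjusted p = 0.0323), with 6710 and 6033 genes called. Without both OVX2_SCI7 replicates 1 and 2 (1.28, adjusted p = 0.00461) it was 7720 genes. OVX2_SCI7 libraries enter this comparison only through the shared estimate of spread. These passes are thus no separate support for a difference.

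The third comparison sets both surgeries against each other. In OVX8_SCI7 against OVX2_SCI7 edgeR called 0 of the 10 genes and 0% of all genes. At an unadjusted p under 0.05 it was 0 of the 10 and 2.21% of all genes. DESeq2 called 3 of 33316 genes and 0 of the 10. Groups did not overlap for 0 of the 10 genes, against 0.241% of all genes higher and 1.08% lower. The log2 differences ran from -1.01 (SE 0.65) for Il1b to 0.10 (SE 0.45) for Gsdmd. The 2 comparisons with SCI7 share its 4 libraries, so their similar values are not independent. In CPM the spread among libraries of a group was lower in OVX8_SCI7 than in OVX2_SCI7 for each of the 10 genes. In TPM this did not hold for Il1r1, with an SD of 4.21 in OVX8_SCI7 against 3.38 in OVX2_SCI7. Within OVX8_SCI7 the highest library was 1.29 times (Nlrp3) to 3.65 times (Il1rn) the lowest in CPM, and within OVX2_SCI7 1.59 times (Il18) to 8.76 times (Il1rn). The difference in spread was not tested.

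**Figure D2:**
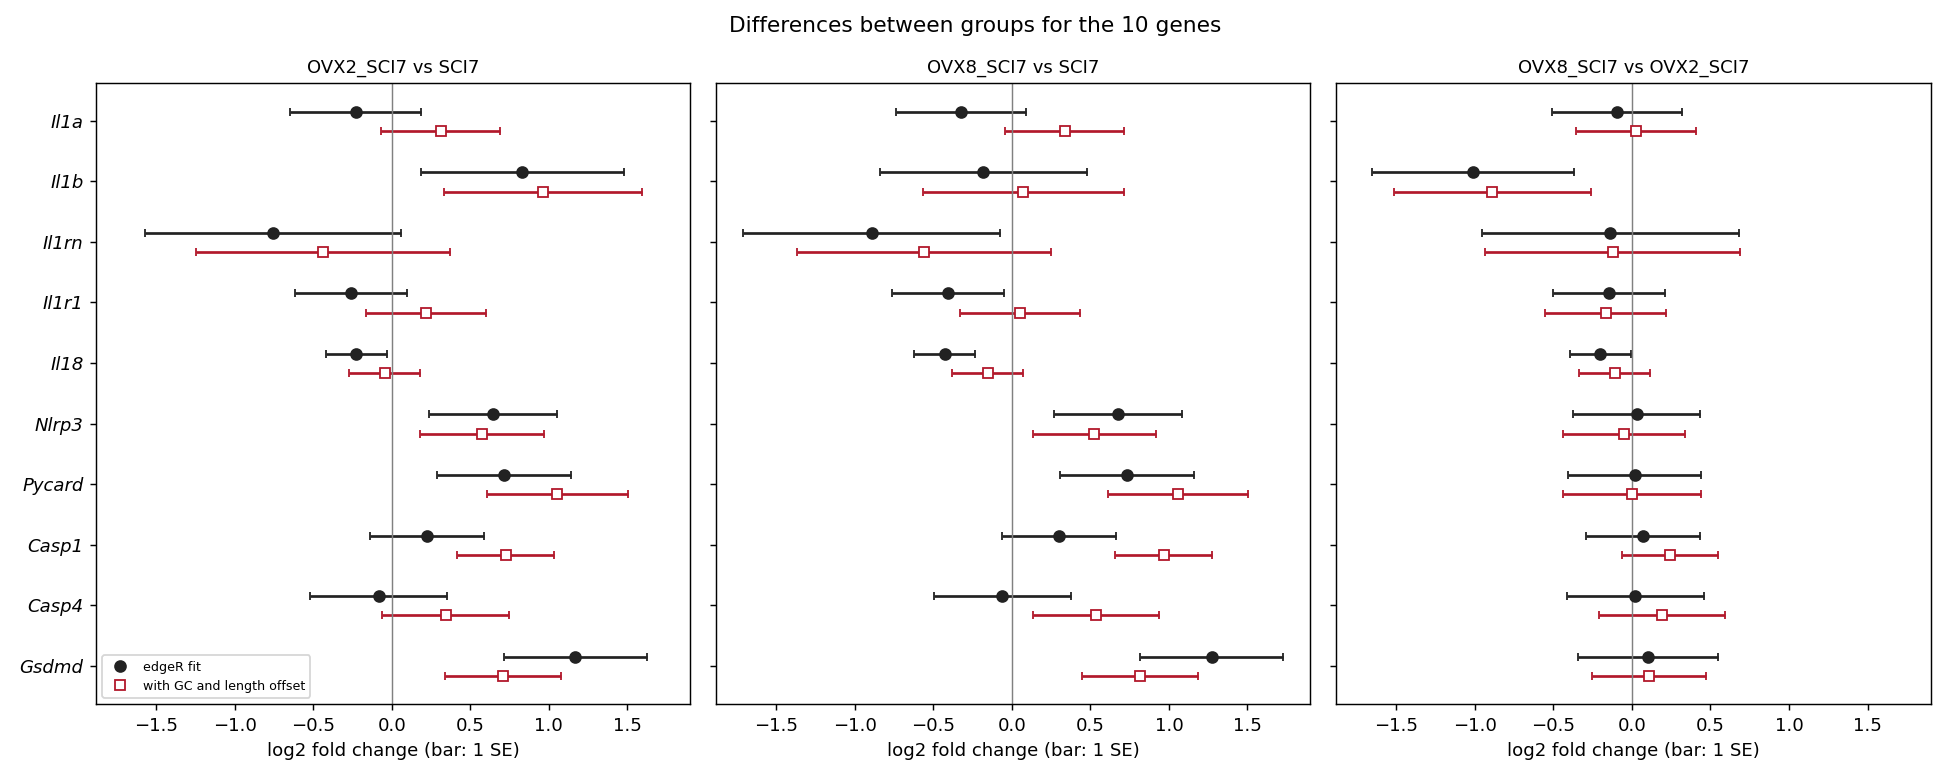
Log2 fold changes of the 10 genes in the 3 comparisons with bars of 1 SE, from edgeR (black circles) and with an offset for transcript GC content and length (open squares). The circles of Gsdmd, at 1.17 and 1.27, lie farthest from 0 in the comparisons with SCI7, and the squares lie to the right of the circles for Il1a, Casp1 and Casp4.

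Transcript GC content moved with these results. Fold changes correlated with GC content at a Spearman coefficient of 0.788 in OVX2_SCI7 against SCI7, 0.818 in OVX8_SCI7 against SCI7 and 0.448 in OVX8_SCI7 against OVX2_SCI7, computed over 15087 protein-coding genes that are no independent replicates. Gsdmd has a transcript of 54.4% GC, at percentile 73.5 of the tested genes, and Nlrp3 one of 51.0% at percentile 56.6. The other 8 genes are GC-poor by the transcripts used, from 41.1% for Casp1 (percentile 9.8) to 46.3% for Il1b (percentile 31.8). After correcting each library for its own trend with GC content and transcript length (the offset fit), Gsdmd stood at 0.82 (SE 0.37) in OVX8_SCI7 against SCI7, Casp1 at 0.97 (SE 0.31), Pycard at 1.06 (SE 0.45), Nlrp3 at 0.53 (SE 0.39) and Casp4 at 0.54 (SE 0.40). In OVX2_SCI7 against SCI7 it stood at 0.71 (SE 0.37), below Pycard at 1.05 (SE 0.45), Il1b at 0.96 (SE 0.63) and Casp1 at 0.73 (SE 0.31). In OVX8_SCI7 against SCI7, Il1a, Il1b, Il1r1 and Casp4 went from negative to positive values. In OVX2_SCI7 against SCI7, Il1a, Il1r1 and Casp4 did. Under this offset 0 of the 10 genes were called in any of the 3 comparisons, against 0.0449% of all genes in OVX2_SCI7 against SCI7 and 0% in both others. At an unadjusted p under 0.05 there were 2 of the 10 in OVX2_SCI7 against SCI7 (10.8% of all genes), 3 in OVX8_SCI7 against SCI7 (15.2%) and 0 in OVX8_SCI7 against OVX2_SCI7 (2.9%). The GC content of Pycard (45.6%) and its offset value are doubtful, because both rest on a transcript of 3800 bases. The ratio of CPM to TPM, which grows with the length used in quantification, was 0.186 per kilobase of that transcript (median of 12 libraries), against 0.326 to 0.535 for the other 9 genes.

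Across the 12 libraries the genes varied together in overlapping sets. Pearson correlations are of log2(CPM + 0.5) and describe these libraries, which share the groups, the depth and the GC trend. Nlrp3 and Pycard had r = 0.98 (Spearman 0.99, r = 0.97 of deviations from group means, r = 0.97 without the 2 libraries farthest from the median). Gsdmd followed both, at 0.93 with Nlrp3 and 0.91 with Pycard, and Casp1 had 0.90 with Nlrp3 and 0.92 with Pycard. The other set was Il1a, Il1rn and Casp4, with r = 0.94 for each of the 3 pairs (0.85 to 0.90 without the farthest 2). The sets were not separate. The 12 pairs across them ran from 0.46 (Il1a with Gsdmd) to 0.89 (Casp1 with Casp4), beside 0.76 for Casp1 with Gsdmd inside the first set. Casp1 had 0.83 with Il1a and 0.81 with Il1rn, so it was tied to both sets, and Casp4 had 0.80 with both Nlrp3 and Pycard. The lowest pairs, Il1a and Il1rn with Gsdmd (0.46 and 0.51), were closer within groups, at 0.76 and 0.87 of the deviations from group means, and went to 0.10 and 0.25 without the farthest 2 libraries. Il1b correlated at 0.37 to 0.63 with the other genes except Il18, and its r with Gsdmd went from 0.48 to -0.41 without the farthest 2 libraries.

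Il18 was the exception in sign. Its r was -0.68 with Gsdmd (-0.57 without the farthest 2 libraries), -0.54 with Nlrp3 and -0.46 with Pycard, and it lay between -0.21 and 0.12 with the other 6 genes. Casp4, with the NF-kappaB letters shown above, and Casp1, without a match to the form searched, are neighbours on chromosome 9 and correlated at 0.89. Nlrp3 and Pycard, the closest pair, did not share any of the 4 motifs, in the forms and windows searched. Whether these motifs have a part in how the genes varied together was not tested.

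**Figure D3:**
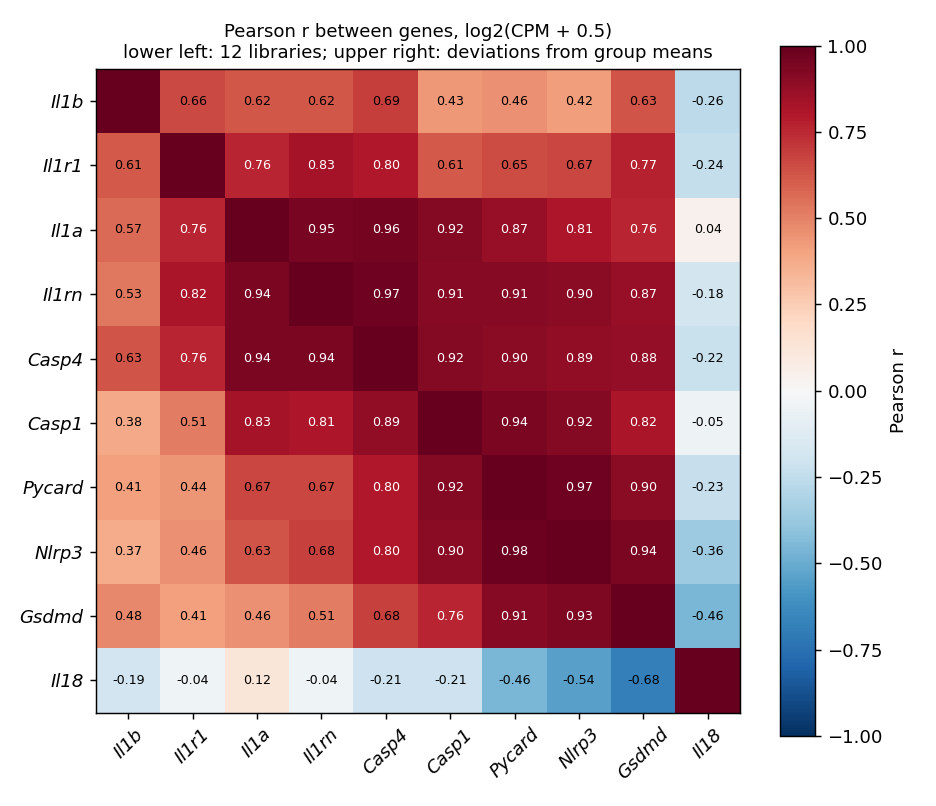
Pearson r of log2(CPM + 0.5) for each pair of the 10 genes, over 12 libraries (lower left) and as deviations from group means (upper right). Il1a, Il1rn and Casp4 form a block at 0.94, Casp1, Pycard, Nlrp3 and Gsdmd another at 0.76 to 0.98, and Il18 gives the blue row and column.

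The level of myeloid markers moved with Nlrp3, Pycard, Gsdmd and Casp1. The markers shared by microglia and macrophages (Itgam, Aif1, Cd68, Csf1r, Tyrobp, Adgre1, C1qa, C1qb, Ptprc and Fcgr3) summed to 706.4 to 2289 CPM in SCI7, 1267 to 4383 CPM in OVX2_SCI7 and 3115 to 3687 CPM in OVX8_SCI7, so that OVX8_SCI7 lay wholly above SCI7. Over the 12 libraries the log sum correlated at r = 0.96 with Nlrp3, 0.96 with Gsdmd, 0.95 with Pycard and 0.83 with Casp1, at 0.75 with Casp4, 0.57 with Il1rn and 0.56 with Il1a, and at -0.63 with Il18. Without the 2 libraries farthest in marker level these became 0.92, 0.96, 0.90, 0.64, 0.33, 0.05, 0.11 and -0.48. As deviations from group means they were 0.97, 0.93, 0.95, 0.89, 0.94, 0.91, 0.85 and -0.39, so that within groups Casp4, Il1rn and Il1a followed the markers too. In bulk tissue, more cells of a type and more RNA per cell cannot be told apart, and the part of the marker level in these results was not tested.

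The other cell type lists varied in how they moved. Markers of infiltrating monocytes and macrophages (10 genes, such as Ccr2 and Arg1) summed to 363.6 to 2562 CPM in SCI7, 322.1 to 2768 CPM in OVX2_SCI7 and 1628 to 2629 CPM in OVX8_SCI7, and their correlation was highest with Casp4 (0.86), Nlrp3 (0.85) and Gsdmd (0.83). Homeostatic microglia markers (7 of 8 listed genes, such as P2ry12, since Fcrls was not found by that symbol) summed to 751.5 to 1607, 1053 to 1763 and 1275 to 1515 CPM and correlated most with Casp1 (0.89) and Casp4 (0.85). Neutrophil markers (10 genes, such as S100a8 and Ly6g), from cells rich in interleukin-1 beta, summed to 126.6 to 156.8, 106.8 to 162.7 and 115.8 to 166.8 CPM, and r with Il1b was 0.03. T and NK cell markers (6 genes) were low but summed to 0.5997 to 2.524 CPM in SCI7, 3.181 to 11.95 CPM in OVX2_SCI7 and 3.663 to 5.644 CPM in OVX8_SCI7, so that both ovariectomy groups lay wholly above SCI7. Their r was 0.87 with Gsdmd, 0.78 with Pycard and 0.76 with Nlrp3. B cell markers (5 genes) did likewise, at 1.254 to 2.430, 2.810 to 4.406 and 3.966 to 6.793 CPM, with r = 0.71 for Gsdmd and 0.64 for Nlrp3. At most 2 of the T and NK cell markers and 1 of the B cell markers were at 0 in a library. In SCI7 replicates 1 to 4, however, 3, 3, 4 and 2 of the 6 T and NK cell markers were under 3 counts. For the 5 B cell markers it was 2, 0, 1 and 2, so these SCI7 sums rest on few counts. Fibroblast markers (6 genes) summed to 1043 to 7250 CPM in SCI7, 898.8 to 27350 CPM in OVX2_SCI7 and 7834 to 14880 CPM in OVX8_SCI7, again wholly above SCI7, and correlated at 0.87 with Gsdmd and 0.86 with Nlrp3. No marker found for the monocyte, microglia, neutrophil and fibroblast lists was at 0 in any library. Neuron markers (6 genes) summed to 1156 to 3980 CPM in SCI7, 817.8 to 4020 CPM in OVX2_SCI7 and 1282 to 2348 CPM in OVX8_SCI7. Their r was -0.84 with Gsdmd, -0.82 with Nlrp3 and -0.81 with Pycard, and positive with Il18 alone, at 0.44. For astrocyte and oligodendrocyte markers (6 genes each) r with Gsdmd was -0.80 and -0.75. The part of these cell types in the results was not tested.

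**Figure D4:**
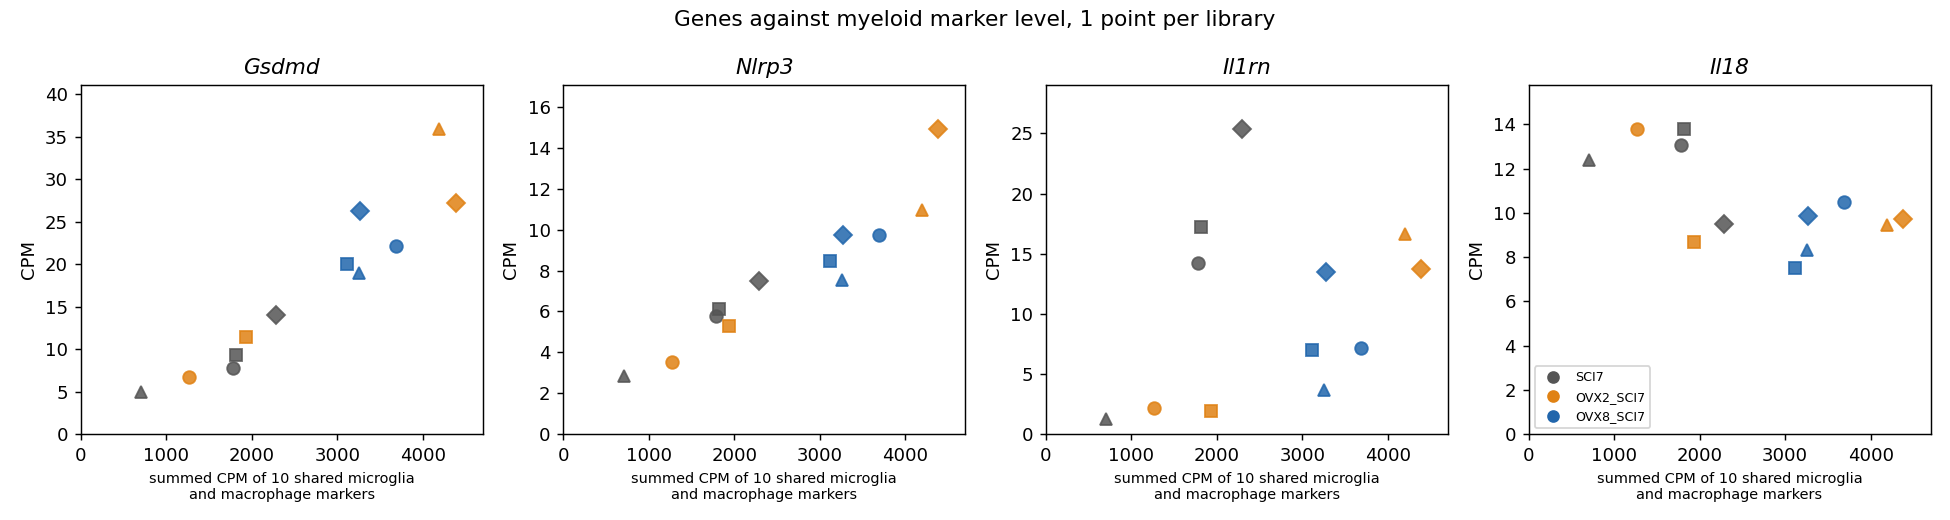
CPM of Gsdmd, Nlrp3, Il1rn and Il18 against the summed CPM of 10 markers shared by microglia and macrophages, with 1 point per library, colours for groups and shapes for replicate numbers as in the plot of TPM by library. Gsdmd and Nlrp3 are higher where the markers are higher, through all groups (r = 0.96 each on the log scale), Il1rn follows them within groups (r = 0.91) but is offset between groups (r = 0.57 over all), and Il18 is lower where the markers are high.

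Set against the marker sum of the same library, a quotient chosen after the data were seen, Gsdmd had similar values in the groups, 5.67 ± 1.15 CPM for each 1000 CPM of markers in SCI7, 6.51 ± 1.43 in OVX2_SCI7 and 6.57 ± 1.01 in OVX8_SCI7 (SD, n = 4). Nlrp3 had 3.47 ± 0.367, 2.89 ± 0.355 and 2.66 ± 0.269 and Pycard 9.79 ± 0.841, 8.63 ± 1.37 and 7.84 ± 1.38. Il1a had 2.80 ± 0.385, 1.51 ± 0.660 and 1.13 ± 0.199, with SCI7 at 2.32 to 3.20 above OVX8_SCI7 at 0.957 to 1.40 and overlapping OVX2_SCI7. Casp4 had 2.85 ± 0.371, 1.60 ± 0.370 and 1.41 ± 0.187, with SCI7 above both other groups. In OVX8_SCI7 against SCI7 the quotient was wholly lower for 7 of the 10 genes (Il1a, Il1b, Il1r1, Il18, Nlrp3, Casp1 and Casp4), opposite to the CPM of Nlrp3, and wholly higher for 0, but 56.6% of all genes tested were wholly lower too and 0.466% higher. In OVX2_SCI7 against SCI7 it was wholly lower for 1, Casp4, against 4.43% of all genes, and wholly higher for 0, against 0.213%. In OVX8_SCI7 against OVX2_SCI7 it was 0 in either direction, against 0.696% lower and 0.196% higher. No test was made of these quotients.

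The genes whose pattern over the 12 libraries was most like that of each of the 10, by Pearson r among 14441 candidates, are given as likeness only. For Nlrp3 they were Dpp7, Parvg and Cnr2 (r = 0.984, 0.983 and 0.977), for Pycard Cenpx, Anp32b and Msrb1 (0.991, 0.988 and 0.983) and for Gsdmd Clcn7, Abcg1 and Pla2g15 (0.988, 0.987 and 0.987). For Casp1 they were Zeb2os, Bcl2a1b and AI662270 (0.971, 0.967 and 0.964), and for Casp4 Rcbtb2, Cd200r4 and Clec4n (0.975, 0.975 and 0.971). Il1rn was most like Rexo5, Clec4e and Tnfrsf26 (0.986, 0.981 and 0.981), and Il1a most like Rnaset2b, Skap2 and Bcl10 (0.977, 0.970 and 0.969). Il1r1 was nearest to Osmr, Itga1 and Slc39a14 (0.971, 0.945 and 0.943), Il18 to Acot6, Cript and Tmem202 (0.956, 0.933 and 0.932), and Il1b to Wars2, Cxcl5 and Hspbap1 (0.907, 0.894 and 0.883). The likeness of Il1b leans on OVX2_SCI7 replicate 3, since Spearman's rho was 0.629 for Cxcl5 and 0.545 for Hspbap1. Rnaset2b and Bcl2a1b have near-identical copies and Zeb2os is an antisense transcript, so their values are uncertain.

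Around the 10 genes, 6 lists of other pathway genes were examined. In OVX8_SCI7 against SCI7, 11 of their 53 tested members passed in edgeR, 6 higher and 5 lower, against 27.5% of all genes. In both other comparisons 0 of the 53 passed, against 0% of all genes.

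Of 13 genes that carry the signal from interleukin-1 receptors, 3 rose and 2 fell in OVX8_SCI7 against SCI7, with a median log2 difference of 0.38 beside 0.015 over all genes. Rela, a subunit of NF-kappaB, had 37.7, 32.8, 26.9 and 43.9 CPM in SCI7 and rose to 54.9, 72.5, 69.4 and 56.5 CPM (log2 0.84, SE 0.23). Nfkb1, its partner subunit, rose from 46.3 ± 12.5 to 79.7 ± 4.997 CPM (SD, n = 4) and Tab1, an activator of the kinase TAK1, from 15.4 ± 1.95 to 26.1 ± 2.72 CPM. Map3k7, which encodes TAK1 itself, fell from 107 ± 11.3 to 69.9 ± 9.26 CPM, and Traf6, the ubiquitin ligase upstream of it, from 45.7 ± 2.57 to 29.8 ± 3.66 CPM. The libraries of both groups did not overlap for any of these 5 genes, against 19.6% of all genes higher and 19.6% lower. The edgeR adjusted p of the 5 genes, by which they were picked, lay between 0.0143 and 0.0388.

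Receptors and ligands beyond the 10 gave 1 call. Il1rap, the accessory chain that the interleukin-1 receptor needs to signal, had 104.5, 104.2, 83.7 and 88.7 CPM in SCI7 and fell to 47.9, 45.1, 51.3 and 52.9 CPM in OVX8_SCI7 (log2 -0.95, SE 0.24, edgeR adjusted p = 0.018). OVX2_SCI7 was split for it, with 103.8 CPM in replicate 1 and 42.7 to 54.8 CPM in the others. The remaining receptors with the smallest p, Il18rap and Sigirr, had log2 differences of -0.55 (SE 0.40) and 0.42 (SE 0.35). Il1rap was the 1 gene of 6 tested in its list, and 0 of 3 tested ligand and binding-protein genes passed. Il33, an alarmin of glial cells, stood at 246 ± 49.97 CPM in SCI7, 200 ± 92.7 in OVX2_SCI7 and 177 ± 25.3 in OVX8_SCI7, far above Il1a and Il1b in CPM, a scale that does not adjust for length. Il18bp, the soluble inhibitor of interleukin-18, stood at 11.9 ± 4.38, 20.7 ± 17.1 and 24.6 ± 2.72 CPM, with OVX8_SCI7 wholly above SCI7 (log2 1.05, SE 0.53). Il36g was at 1.14 ± 0.494, 0.549 ± 0.330 and 0.618 ± 0.308 CPM. Il36a and Il36b were at 0 counts in every library, and Il36rn, Il1f10 and Il18r1 were under the filter.

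Among inflammasome sensors and triggers, 1 of 12 tested rose and 1 fell in OVX8_SCI7 against SCI7. Nek7, a kinase that bridges NLRP3 subunits, had 170, 175, 148 and 143 CPM in SCI7 and fell to 97.8, 82.2, 84.1 and 105 CPM (log2 -0.79, SE 0.17, edgeR adjusted p = 0.0143), while Nlrp3 itself lay higher in CPM as given above. Nlrp1a, a sensor activated by proteases, rose from 0.731 ± 0.372 to 1.61 ± 0.404 CPM with overlapping libraries. Aim2, the sensor of DNA in the cytosol, stood at 14.4 ± 2.89 CPM in SCI7 and 11.0 ± 2.09 in OVX8_SCI7 (log2 -0.39, SE 0.24).

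Among effectors of lytic death and membrane repair, 1 of 7 tested rose and 1 fell. Gsdme, a gasdermin cut by the apoptotic caspase-3, had 25.3, 21.8, 30.6 and 14.7 CPM in SCI7 and fell to 13.35, 12.98, 12.09 and 11.98 CPM in OVX8_SCI7 (log2 -0.87, SE 0.23, edgeR adjusted p = 0.0203), opposite in sign to Gsdmd. Chmp4b, part of the ESCRT machinery that repairs pores, rose from 134 ± 11.6 to 192 ± 24.9 CPM. Ninj1, which ruptures the membrane of dying cells, stood at 31.8 ± 12.5 against 65.1 ± 11.5 CPM with no overlap (log2 1.04, SE 0.50, edgeR adjusted p = 0.133). Of 12 tested interleukin-1 responsive targets 1 rose, the NF-kappaB inhibitor Nfkbia, from 32.0 ± 4.98 to 48.9 ± 2.68 CPM. Vcam1 and Icam1, adhesion molecules for leukocytes, had log2 differences of -0.30 (SE 0.14) and 0.80 (SE 0.41).

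These 11 calls depended on the settings. With the GC content and length offset 0 of 11 were still called and 2 changed sign, Nek7 from -0.79 to 0.01 and Chmp4b from 0.52 to -0.06, while Nlrp1a went from 1.12 to 1.25 and Nfkb1 from 0.78 to 0.45. Gsdme went to -0.16 when its GC content was taken from the longest protein-coding transcript (41.3% GC) and to -1.04 with the APPRIS principal transcript (50.9% GC), so that its value under the offset depends on the transcript model. Without OVX8_SCI7 replicate 2 edgeR called 0 of the 11, without SCI7 replicate 2 or OVX8_SCI7 replicate 3 it called Tab1 and Nek7 alone, and without SCI7 replicate 1 or 3 it called 5, namely Il1rap, Traf6, Map3k7, Tab1 and Nek7.

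**Figure D5:**
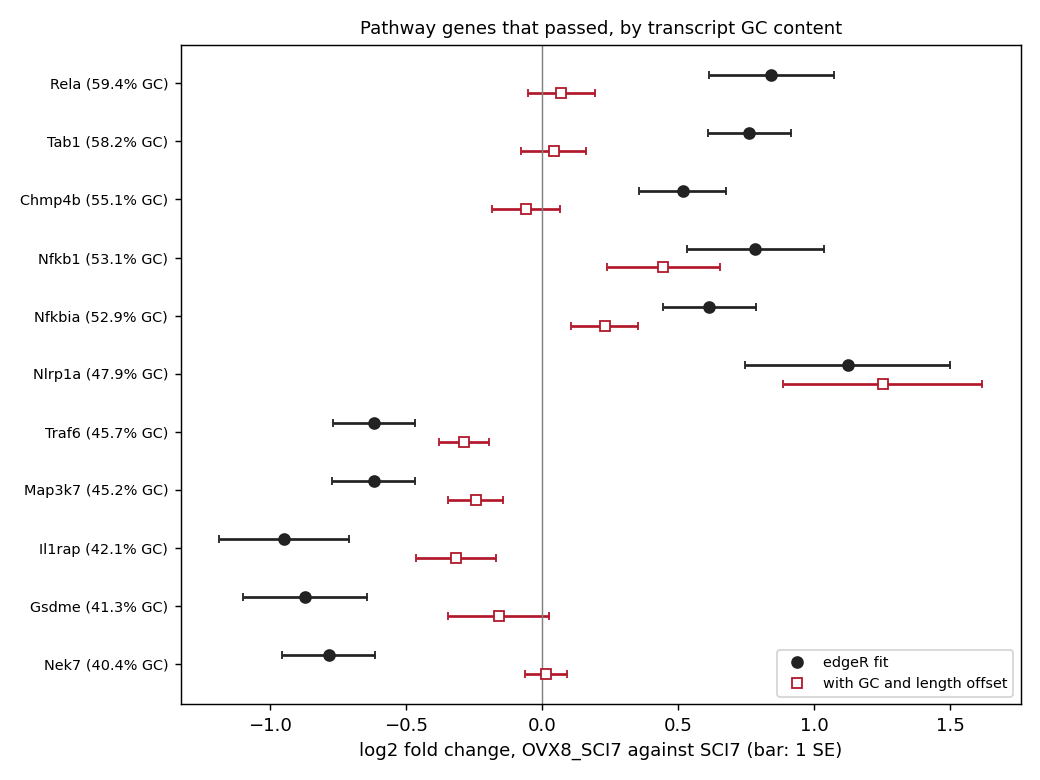
Log2 fold changes in OVX8_SCI7 against SCI7, with bars of 1 SE, of the 11 pathway genes that passed, ordered by transcript GC content, from edgeR (black circles) and with the GC content and length offset (open squares). The 5 genes with the lowest GC content are those that fell, the 6 others rose, and all squares but that of Nlrp1a lie nearer to 0, with Nek7 at 0.01 and Rela at 0.07.

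In OVX2_SCI7 against SCI7, where 0 pathway genes passed in edgeR, the genes with the smallest p in each list are given as values. In the signalling list the log2 difference was 0.72 for Tab1, -0.61 for Map3k7 and -0.54 for Traf6 (SE 0.15 each), with no overlap between the libraries. Il1rap, Il1r2 and Sigirr had -0.60 (SE 0.24), 0.62 (SE 0.53) and 0.29 (SE 0.35), and Il36g, Il18bp and Il33 had -1.05 (SE 0.57), 0.79 (SE 0.53) and -0.30 (SE 0.27). Nek7, Nlrp1a and Nlrp1b had -0.59 (SE 0.17), 0.75 (SE 0.38) and 0.86 (SE 0.49). The interferon-induced GTPases Gbp2 and Gbp5, which open bacterial and vacuolar membranes, had 1.07 (SE 0.29) and 0.75 (SE 0.24), and Chmp4b had 0.53 (SE 0.16). All 3 were higher in 4 of 4 OVX2_SCI7 libraries than in every SCI7 library, replicates 1 and 2 included, with Gbp2 at 22.0, 26.7, 42.9 and 59.1 CPM against 11.9 to 21.4 CPM. Such a lack of overlap was found for 6.13% of all genes higher and 6.29% lower, while the genes here were picked for their small p. Nfkbia had 0.73 (SE 0.17), Saa3, an acute phase protein, 2.16 (SE 0.80) and Ptgs2, the inducible cyclooxygenase, -0.94 (SE 0.51).

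In OVX8_SCI7 against OVX2_SCI7 the smallest p-values belonged to Il1r2, a decoy receptor for interleukin-1 (log2 -1.19, SE 0.54), and Saa3 (-1.70, SE 0.78), both with an edgeR adjusted p of 0.999. Gbp5, Gbp2 and Gsdme had -0.49 (SE 0.23), -0.49 (SE 0.29) and -0.23 (SE 0.23). Irak1, Rela and Tollip had 0.30 (SE 0.16), 0.23 (SE 0.23) and -0.12 (SE 0.14), and Nek7, Nlrp1a and Naip1 -0.20 (SE 0.17), 0.38 (SE 0.36) and -0.56 (SE 0.58). Il1rap and Il18rap had -0.35 (SE 0.24) and -0.46 (SE 0.40), Il33, Il18bp and Il36g -0.17 (SE 0.27), 0.25 (SE 0.53) and 0.19 (SE 0.58), and Vcam1 and Nfkbiz -0.23 (SE 0.14) and -0.26 (SE 0.26).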

How the data were processed

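Groups and replicate numbers came from the sample labels, which name 1 batch. Per the submitters' processing notes, the tools were fastp 0.23.4 for trimming, HISAT2 2.2.1 for alignment (genome GRCm39) and RSEM 1.3.3 for quantification. Those notes list DESeq2 1.42.0, limma and edgeR as well. The authors deposited expected counts per gene, which were rounded to whole numbers here, and TPM values, which were used as deposited. Strand setting and library kit: not given in the sources used here. A further 6 value columns match no sample and were left out.

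Counts were filtered with filterByExpr, scaled by TMM and fitted over all 12 libraries with the group as the only term (edgeR 4.0.16, limma 3.58.1, R 4.3.3), using robust quasi-likelihood tests adjusted by Benjamini-Hochberg over 17820 genes at a threshold of 0.05. The fit was tested on simulated counts with known differences. These held no GC trend and no libraries that stood apart, so that test does not cover either. CPM used the TMM-scaled totals, and floors the unscaled ones. Replicates all differed by more than counting noise (chi-square per gene 13.1 to 387).

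The members and gene lists were chosen with earlier results of these data known. All members are named. In each list and comparison the 5 genes with the smallest p among those that passed are named or, where fewer than 3 passed, the 3 with the smallest p, as are the 3 genes most like each member (averaging 1 CPM or more, without predicted genes). The alternatives were RLE scaling, no filter and a stricter one (mean of 50 counts, and 1 CPM in 4 libraries), limma-voom, DESeq2 1.42.0, limma-trend on log2(TPM + 1), 8 libraries alone, a replicate block, leaving libraries out, and an offset for GC content and length. The offset is a spline with 5 degrees of freedom, fitted to genes averaging 5 CPM or more, and takes the longest protein-coding GENCODE M21 transcript (GRCm38). A version with the APPRIS principal transcript was added after the results with the longest one had been seen.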

Additional observations from a re-analysis of the deposited data

Results flagged for a closer look

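In 30 sets of 4 CPM values (10 genes in 3 groups), a library far from the other 3 was found in 3, by Dixon's test of the gap at an end of the group. Chance marks about 1 set in 20 where sets are independent. The genes vary together across libraries, so the number found cannot be judged against chance here. Il1a in SCI7 replicate 3 was at 1.64 CPM against 5.43 to 6.16 CPM in the other libraries of the group. Il1b in OVX2_SCI7 replicate 3 was at 5.41 CPM against 0.674 to 0.954 CPM. Il1r1 in OVX8_SCI7 replicate 4 was at 51.2 CPM against 31.6 to 33.7 CPM.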

How the results depend on the processing

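Depth limits Il1b most, with 6 to 101 counts per library, and the groups of 4 with a common biological coefficient of variation of 0.312 limit all others. In OVX2_SCI7 against SCI7 the number of all genes called was 14 without the low-count filter, 1144 with the stricter one, 3488 with DESeq2, 893 with limma-voom, 16 with limma-trend, 2 with 8 libraries alone, 8 with the GC content and length offset, 19 with the APPRIS version and 7141 minus OVX2_SCI7 replicates 1 and 2. In OVX8_SCI7 against SCI7 it was 3257 without filter, 3000 with limma-trend, 7426 with 8 libraries alone, 0 with either offset, 1 with offset and replicate block, and 7720 minus both libraries. In OVX8_SCI7 against OVX2_SCI7 DESeq2 called 3. These counts come from unlike gene sets. Without the filter and with DESeq2 33316 genes entered, with the stricter filter 14370, and minus both libraries 18426. With 8 libraries alone it was 17400 in OVX2_SCI7 against SCI7 and 17288 in OVX8_SCI7 against SCI7. The other settings listed used 17820. Members called in OVX8_SCI7 against SCI7 were 1 with DESeq2, 1 with 8 libraries alone and 1 minus both libraries, each time Gsdmd. All genes called in those fits numbered 6215, 7426 and 7720. In OVX2_SCI7 against SCI7 3 members were called minus both libraries, with 7141 of all genes. The cause was not tested.

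Fold changes (log2) that turned sign were all of genes not called. With limma-voom they were Casp4 at 0.10 in OVX8_SCI7 against SCI7, and Il1a at 0.0116 and Il1rn at 0.36 in OVX8_SCI7 against OVX2_SCI7, and with limma-trend the same genes at 0.11, 0.0538 and 0.74. With the offset Il1a, Il1r1 and Casp4 stood at 0.31, 0.22 and 0.34 in OVX2_SCI7 against SCI7, Il1a, Il1b, Il1r1 and Casp4 at 0.34, 0.0731, 0.0521 and 0.54 in OVX8_SCI7 against SCI7, and Il1a and Nlrp3 at 0.0266 and -0.0495 in OVX8_SCI7 against OVX2_SCI7. The APPRIS version, added after the data were seen, gave Il1a 0.34, Il1r1 0.23, Il18 0.10 and Casp4 0.37, then Il1a 0.36, Il1b 0.0914, Il1r1 0.0574, Il18 0.0346 and Casp4 0.56, then Il1a 0.0218 and Nlrp3 -0.0516, in the same order of comparisons. With offset and replicate block Il1a, Il1r1 and Casp4 were at 0.30, 0.27 and 0.30, then at 0.36, 0.13 and 0.55, and Il1a at 0.0578 in the last comparison. Minus both libraries, Il1a, Il1rn, Il1r1 and Casp4 were at 0.24, 0.0688, 0.0888 and 0.47 in OVX2_SCI7 against SCI7, and Nlrp3, Casp1, Casp4, Pycard and Gsdmd at -0.54, -0.45, -0.53, -0.58 and -0.53 in OVX8_SCI7 against OVX2_SCI7.

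Leaving out each library in turn (12 fits) gave 0 to 6264, 0 to 6710 and 0 to 1 genes called over all in OVX2_SCI7 against SCI7, OVX8_SCI7 against SCI7 and OVX8_SCI7 against OVX2_SCI7, and 0 to 1, 0 to 1 and 0 to 0 members. In OVX8_SCI7 against SCI7 the 0 came without OVX8_SCI7 replicate 2, with 1215 without its replicate 3, 2536 without its replicate 1, and 2343, 1642 and 2912 without SCI7 replicates 1, 2 and 3. Ranges that crossed 0 in OVX2_SCI7 against SCI7 were -0.53 to 0.0197 for Il1a, -0.38 to 1.13 for Il1b, -0.52 to 0.0894 for Il1r1, -0.0939 to 0.45 for Casp1 and -0.40 to 0.15 for Casp4. In OVX8_SCI7 against SCI7 they were -0.49 to 0.0843 for Il1b and -0.36 to 0.17 for Casp4. In OVX8_SCI7 against OVX2_SCI7 they were -0.35 to 0.15 for Il1a, -1.32 to 0.20 for Il1b, -0.53 to 0.40 for Il1rn, -0.33 to 0.11 for Il1r1, -0.22 to 0.41 for Nlrp3, -0.16 to 0.39 for Casp1, -0.21 to 0.34 for Casp4, -0.22 to 0.37 for Pycard and -0.18 to 0.53 for Gsdmd.

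Same-numbered samples did not deviate together, with correlations of -0.691 to 0.574, -0.208 to 0.484 and -0.526 to 0.462 in OVX2_SCI7 against SCI7, OVX8_SCI7 against SCI7 and OVX8_SCI7 against OVX2_SCI7, and 1, 2 and 1 of 4 samples correlated best with their own number. The replicate block gave 0, 3390 and 0 calls over all genes and 0 members in each comparison.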

Other observations

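OVX2_SCI7 replicate 3, the library with the highest Il1b, also held the highest level of several other pathway genes, which were picked after their values were seen. Saa3 was at 15.1 CPM there and at 0.689 to 4.67 CPM in the other 11 libraries, and Il1r2 at 3.11 CPM against 0.400 to 1.06 CPM. The chemokine gene Cxcl2, under the filter in the series, was at 2.25 CPM there and at most 0.757 CPM elsewhere. Its neutrophil marker sum of 135.4 CPM was inside the range of the other libraries.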
